A study of Mus musculus with 16 samples.

Results

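EL4 is a mouse T cell lymphoma line of the C57BL background that is widely grown as a transplanted tumour in immunocompetent mice. Its copy number profile rests on 1 array of the 16 in the series, the array labelled EL4, with strain C57BI6, sex female and tissue of origin blood. The series compared genomic DNA of 16 cultured syngeneic tumour lines, grown in vitro, with 1 DNA sample per line. Each array compared the Cy5-labelled line with Cy3-labelled commercial mouse genomic DNA, called reference DNA below, and the log2 ratios are given as line over reference DNA, so values above 0 are relative gains. The lines set beside EL4 were 11 others labelled C57BI6, which form 7 families: MC38 (colorectal), LL2 (lung), B16 (melanoma, 4 arrays averaged), Hepa1-6 (liver), PAN02 (pancreas), TRAMPC (prostate, 2 arrays averaged) and ID8 (ovary). A further 4 families carry other strain labels, namely CT26, 4T1 and Renca (Balb/C) and P815 (DBA/2). The TRAMPC lines are labelled male and all others female. Every line is a cultured tumour, so no array shows normal C57BI6 DNA.

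Comparative genomic hybridisation compares the amount of each genomic site in 2 DNA samples, and a site present once in place of a pair per cell gives a ratio near -1 on the log2 scale when all cells carry the change. Lymphoid tumours carry 2 kinds of deletion as background: those acquired by the tumour, and those made when developing T cells cut out DNA while joining the segments of their antigen receptor loci. Tumour lines also carry the inherited copy number variants of their strain, which can appear in many lines of that strain against a reference DNA of other origin.

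With 1 array and no replicate, the values below describe this DNA sample, and errors of segment means are standard errors (SE) over neighbouring probes. Precision is limited by having so few arrays. The noise of EL4 between neighbouring probes was 0.263 in log2, which was rank 3 from the lowest of the 16 arrays (range 0.220 to 0.406), and 99.6% of its probes were well above background in both channels. Probes lay at a median spacing of 7827 bp on the mouse build mm8. Hepa1-6 and PAN02 correlated at r = 0.99 over 2386 bins of 1 Mb, against 0.19 to 0.56 for the 20 other pairs of C57BI6 families, so fits are also given with them counted as 1 family. The Y chromosome had a median of -0.999 in EL4, with 408 of 591 probes not well above background in the line and 332 in the reference DNA. The TRAMPC family lay at 3.17 on Y and the 10 other families between -0.999 and -0.55, so EL4 lacked the raised Y signal of TRAMPC. With so many Y probes near background in each channel, these ratios cannot separate EL4 from the 10 families. The sex label of EL4 was not tested.

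In the main processing, more of the EL4 genome was lost than gained. Segments are stretches of probes of 1 level found by a change point search, and a segment mean at or below -0.3 is called lost and one at or above 0.3 gained. Of 220589 autosomal probes, 11.2% lay in lost segments, covering 309 Mb, and 4.44% lay in gained segments, covering 89.6 Mb. With normexp background correction in place of the scanner's subtraction the order turned, with 3.90% lost and 4.24% gained. The autosomes held 395 segments. The lost segments were split at a fixed value of -0.6. Of those below it, 22 segments of at least 100 probes lay between -1.31 and -0.78, with a median of -0.91. A second set lay between -0.6 and -0.3 and covered 5.04% of probes. The levels depended on the background correction, since with normexp the longest blocks on chromosomes 3 and 13 lay at -0.31 and -0.29. The values nearest the thresholds were -0.32 inside and -0.29 outside for loss, and 0.303 inside and 0.299 outside for gain.

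**Figure D1:**
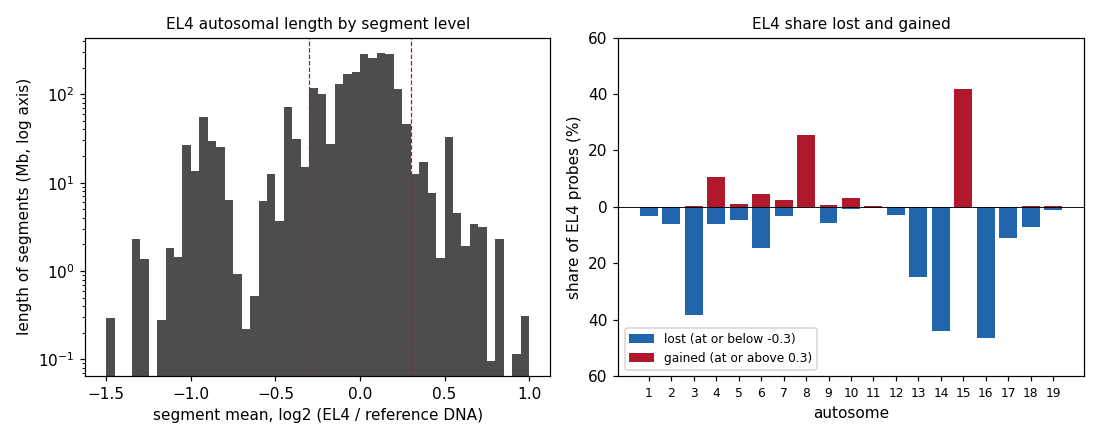
Left: autosomal length of EL4 (Mb, log axis) at each segment mean (log2 of EL4 over reference DNA, bins of 0.05, segments between -1.5 and 1), with dashed lines at -0.3 and 0.3. Right: share of EL4 probes lost (bars below 0) and gained (bars above 0) on each autosome. A peak of length stands near -0.91, and chromosomes 3, 13, 14 and 16 carry the largest lost shares while 15 and 8 carry the largest gained shares.

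The longest losses near -0.91 were on chromosomes 3 and 13. Chromosome 3 had 38.3% of its probes lost, nearly all of them at or below -0.6 (37.4% of probes). Its first block ran over chr3:3498960-36656831 at -0.91 ± 0.01 (SE over 2430 probes), against a median of -0.05 in the other C57BI6 families (-0.30 to 0.11). The next ran over chr3:37687092-46757298 at -0.91 ± 0.02, against -0.06 (-0.32 to 0.09). EL4 lay below every one of the 7 families in both blocks. After subtraction of the median over the 7 families from each probe, both became 1 block of 43.2 Mb, chr3:3498960-46716802, with a mean difference of -0.85. A block at chr3:67299855-81260917 had a mean of -0.97, and its larger part, chr3:69970300-81260917, lay at -1.02 ± 0.01 against -0.01 (-0.29 to 0.14). The last block reached the last probes of the chromosome, chr3:147486465-159870361, and had a mean of -0.97. The segment between the first 2 blocks lay at -0.55 in EL4, against 0.25 in the families. At its edges EL4 stepped by 0.37 and -0.36, and the median step of the families was 0.36 and -0.39. EL4 thus stayed below the families there, and the loss was not interrupted relative to them. The segments between the later blocks lay above -0.3, so the loss on chromosome 3 was interrupted at those places.

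Chromosome 13 carried the second longest block. It covered chr13:23491468-49187295, 25.7 Mb, at -0.86 ± 0.01, against -0.10 in the other C57BI6 families (-0.23 to 0.04). Chromosome 13 holds the locus of the T cell receptor gamma chain (Tcrg), but its position on mm8 was not used here, so overlap with the block was not determined.

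Shorter blocks near this level lay on several further chromosomes. On chromosome 17, chr17:78604020-88496522 lay at -0.82 ± 0.01, against 0.31 in the other C57BI6 families (0.09 to 0.42). The families lay above 0 here, so the difference of EL4 from them was -1.13, larger than its distance from the reference DNA. On chromosome 4, chr4:12389839-19395661 lay at -1.02 ± 0.01, against -0.27 in the families, but LL2 was also low there at -0.81. On chromosome 5, chr5:78092186-84831730 lay at -0.95 ± 0.02, against -0.14 (-0.35 to 0.24). On chromosome 9, the block chr9:88909406-96753197 had a mean of -0.91, against -0.15. Chromosome 2 carried losses at chr2:167911289-174390104 (-0.82 ± 0.02, against 0.05 in the families) and chr2:159085330-162121439 (-0.90, against 0.07). The block at chr18:78149142-83542860 had a mean of -1.05 over 544 probes, against -0.18.

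Of the blocks of at least 1 Mb, 3 lay lower still. They were chr10:46342053-47947119 at -1.13 (against -0.26), chr1:193404067-195272331 at -1.31 ± 0.02 (against -0.24, range -0.41 to 0.31) and chr2:21455416-22839775 at -1.26 ± 0.03 (against 0.07, range -0.05 to 0.27). The chromosome 1 and chromosome 2 blocks did not overlap the range of the other C57BI6 families. In all, 72 separate blocks lay at or below -0.6, 19 of them at least 1 Mb long, and together they covered 168 Mb. This count includes short blocks that the other C57BI6 families share. Examples are chr2:77680396-77792980 (-2.09, against -1.96) and chr1:173351486-173405431 (-2.02, against -2.04). After subtraction of the family median, 22 blocks of at least 1 Mb lay at or below -0.6 and covered 171 Mb.

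The second set of losses, between -0.6 and -0.3, was of a different extent. Chromosome 16 had a median of -0.34, against -0.02 in the other C57BI6 families (-0.22 to 0.13), and 46.5% of its probes were lost. EL4 lay below all 7 families on this median. Its longest lost segment, chr16:62244344-80603515, was at -0.45 ± 0.01, against -0.12 (-0.40 to 0.14). The other segment named there, chr16:84467288-97297288, was at -0.33 ± 0.01, against -0.03 (-0.32 to 0.26). MC38 came close to EL4 in the longer segment, at -0.40, and LL2 in the other, at -0.32.

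Chromosome 14 looked alike by its share, with 44.1% of probes lost, but differed little from the other families. Its median was -0.31 in EL4, against -0.26 in the families (-0.31 to 0.03). The 4 long segments there lay between -0.41 and -0.38 in EL4, against family medians of -0.32 to -0.23, and each lay within the range of the 7 families or just below it. The proximal part of chromosome 6, chr6:3024849-25037303, was at -0.42 ± 0.01 in EL4, against 0.23 (-0.07 to 0.70, the highest in B16), so EL4 was lower than every family there.

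Gains were fewer and lower. Chromosome 15, on which many mouse T cell tumours carry extra copies, had 41.8% of its probes gained. EL4 lay at 0.51 ± 0.01 over chr15:3091692-13122397 and 0.51 ± 0.01 over chr15:24992804-43268870. The other C57BI6 families lay there at 0.41 (-0.10 to 0.79) and 0.38 (0.06 to 0.73), so these gains overlapped theirs. The next segment, chr15:43286580-57550144, was at -0.28 ± 0.01 in EL4, against 0.36 (0.05 to 0.60), below all 7 families. Beyond it, EL4 had 5 gained segments, at 0.62, 0.58, 0.53, 0.61 and 0.58 in order, separated by segments between -0.43 and 0.01 and a short deletion, chr15:80732245-80832570, at -1.16 ± 0.06, against 0.29 in the families (0.21 to 0.62). Chromosome 8 had 25.6% of its probes gained. Its longest gained segment, chr8:119827471-132071242, was at 0.37 ± 0.01, against 0.14 (-0.07 to 0.52), so EL4 lay within the range of the families, of which MC38 was the highest.

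After subtraction of the family median, the longest block of relative gain was chr4:116178672-139011126, 22.8 Mb with a mean difference of 0.40. EL4 itself lay at 0.72 in its first segment and then at 0.11, 0.17 and 0.32 in the longer ones, so most of it was not called gained. The families lay low on chromosome 4, with a median of -0.22 (-0.27 to -0.03), against 0.05 in EL4. Short gains were also listed by a selection made after the values were seen, limited to segments under 5 Mb that lay at or above 0.6 and at least 0.5 above the family median. It held 9 segments, and in 2 of them a family lay above EL4. These were chr7:103555646-103587547 (2.48 in EL4, 2.53 in PAN02) and chr6:136615722-138576216 (0.83 in EL4, 0.88 in B16). The longest were chr6:120798874-124246251 at 0.66 ± 0.02, against 0.15 (-0.05 to 0.65, the highest in B16), and chr4:116182052-119158623 at 0.72 ± 0.02, against -0.14 (-0.23 to -0.06). The chromosome 4 gain lay far above the narrow range of the families. Others were chr11:11489290-11682699 at 0.99 ± 0.09, against 0.04 (-0.13 to 0.19), chr18:21103282-21272224 at 0.71 ± 0.04, against -0.23 (-0.32 to -0.07), and chr19:27368509-27482693 at 0.95 ± 0.06, against 0.22 (0.00 to 0.77). ID8 reached 0.77 in the chromosome 19 segment.

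A dense run of change points lay near the end of chromosome 6. Over chr6:136615722-142464797, 5.85 Mb, EL4 passed through 8 segments. They lay in order at 0.83, -0.93, -0.03, -0.74, 0.52, -0.91, 0.59 and -0.85. Each of the 8 boundaries from the end of the first segment to the return to 0.19 was a step of at least 0.5. The median step of the other C57BI6 families over the same segments was at most 0.22 in size. EL4 alternated between gained and lost levels here, and the steps of each single family were not tested.

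Over all autosomes there were 376 change points, of which 213 were steps of at least 0.5. Of these, 161 exceeded the step of the other C57BI6 families at the same place by at least 0.5. The boundaries were placed to a median gap of 9.38 kb between neighbouring probes. Chromosome 12 had 15 such steps beyond the families, chromosome 2 had 14, chromosome 6 had 13, and chromosomes 1, 5, 15 and 18 had 12 each. Chromosome 3 had 8.

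**Figure D2:**
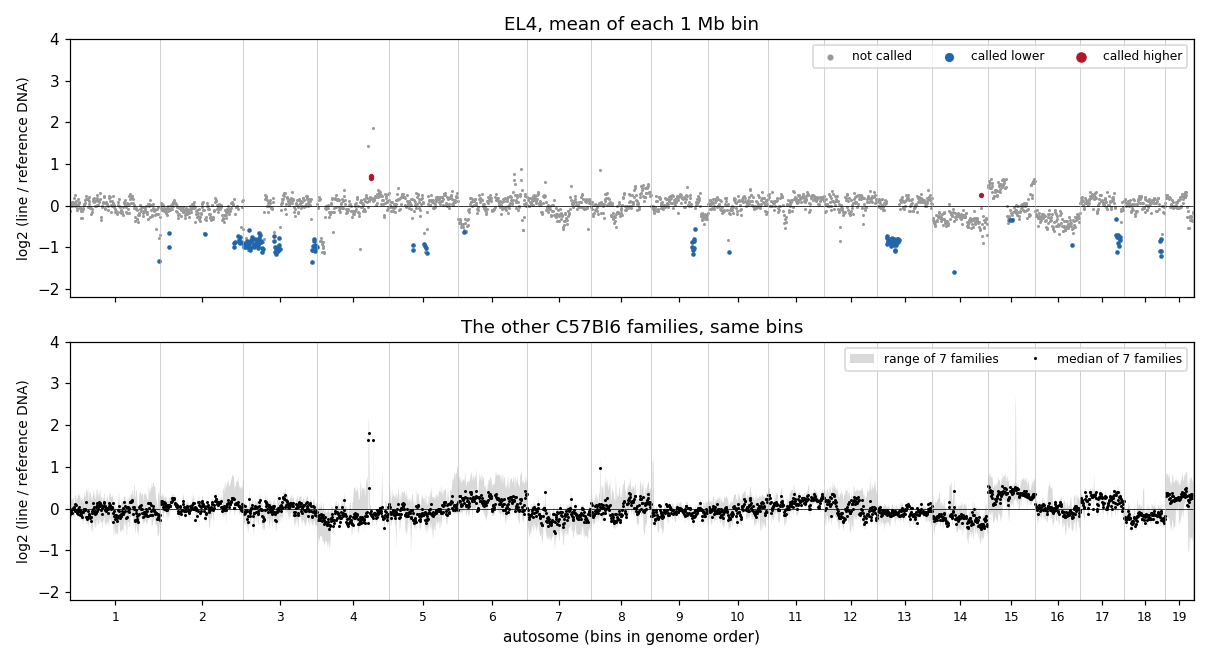
Top: mean log2 ratio of EL4 over reference DNA in each 1 Mb bin, in genome order by autosome, with bins called lower (blue) or higher (red) than the other C57BI6 families. Bottom: median (points) and range (grey) of the 7 other families in the same bins. Called lower bins cluster on chromosomes 3, 13, 2, 17, 9, 5 and 18.

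The difference of EL4 from the 7 families was tested with limma on the means of 1 Mb bins, with Benjamini-Hochberg adjustment over all 2386 autosomal bins at 0.05. The lone EL4 array is assumed there to vary like the families, and the smallest p that an exact permutation over the 8 profiles allows is 0.13. EL4 was lower in 136 bins (5.7% of those tested) and higher in 4 (0.168%). With Hepa1-6 and PAN02 as 1 family the counts were 115 lower and 3 higher, and within the scan batch of EL4, which left 5 families, they were 110 lower and 3 higher. With the batch as a block they were 113 lower and 3 higher. With normexp background correction no call was left: limma called 0 bins lower and 0 higher, with 106 bins at an unadjusted p under 0.05. EL4 lay below each of the 7 families in every lower bin, but calling a bin lower makes this nearly certain. Chromosome 3 held 62 of them, chromosome 13 held 26, chromosome 2 held 12, chromosome 17 held 10, chromosome 9 held 8, chromosome 5 held 6 and chromosome 18 held 5. Of the lower bins, 133 touched a segment at or below -0.6 in EL4. The losses between -0.6 and -0.3 were mostly not called, for instance 1 bin of 21 inside the chromosome 6 segment and 0 of 17 inside the long chromosome 16 segment.

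The bin with the largest difference was chr14:52000001-53000000, with -1.60 in EL4 and 0.46 ± 0.14 in the families (SD, n = 7), a limma difference of -2.06 with an adjusted p of 0.000104. Of the next 9 lower bins by size, 5 lay between chr17:80000001 and chr17:87000000. In them EL4 had -1.10 to -0.76, against family means of 0.10 to 0.37, with limma adjusted p between 0.00523 and 0.00639. The others were on chromosome 1 (difference -1.19), chromosome 3 (-1.19 and -1.14) and chromosome 2 (-1.11). The 4 higher bins comprised 3 neighbours, chr4:116000001-119000000, with a mean of 0.69 in EL4 and -0.11 in the families and a mean difference of 0.80 (largest limma adjusted p 0.0113). The last was chr14:110000001-111000000, at 0.27 in EL4, against -0.39 in the families (limma adjusted p 0.0313). That bin was no longer called with Hepa1-6 and PAN02 as 1 family, within the scan batch, or with the batch as a block.

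At the level of single probes, limma called 2601 of 220335 lower (1.18%) and 193 higher (0.0876%). These counts fell to 1434 and 72 with Hepa1-6 and PAN02 as 1 family, to 1104 and 45 when scan batch entered as a block, to 491 and 7 within the batch of EL4, and to 3 and 62 with normexp. Lower probes formed 413 runs of at least 2 neighbours and higher probes formed 32. Of the 10 strongest higher runs, 6 lay inside the chromosome 4 gain. The longest of these 10, chr11:11546140-11613747 with 9 probes, had 1.11 in EL4 and -0.11 ± 0.14 in the families (SD, n = 7). No probe called lower in the main processing was called lower with normexp.

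The deepest changes in EL4 were short deletions in which the line gave almost no signal. A focal segment is shorter than 5 Mb, and 39 autosomal ones lay at or below -1. By the rule used for strain variants, 5 of them were shared with at least 4 of the 7 C57BI6 families at or below -0.5, 18 had none of the 11 other families at that level, and 16 were shared with some. This rule counts a family as sharing a deletion even where EL4 is far deeper, so the distance from the family median was counted as well, an alternative chosen after the data were seen. By measured means it left 24 segments at least 1 below the family median, on 13 chromosomes. With probes well above background alone it left 15, but deletions with fewer than 5 such probes cannot form a segment in that setting. With normexp it left 0, where the count at or below -1 was 3 in place of 39. The shallowest of the 39 was at -1.02, and the next segment outside the threshold was at -0.98.

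Of the 24, 9 lay at or below -3, and they formed 8 regions of 22.9 to 292 kb with 903 kb in all. Probes not well above background in the line give only a bound, so each fold is given as at least that bound. No probe of these segments was dim in the reference DNA. With normexp the 9 segments lay between -0.73 and -0.43.

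On chromosome 12, chr12:41898910-42044772 lay at -5.09 ± 0.27, with 15 of its 19 probes not well above background, which is at least 14.4-fold lower than the reference DNA. The other C57BI6 families lay at -0.21 there (-0.31 to 0.36). All 19 probes were called lower by limma, with a largest adjusted p of 0.000404. EL4 stayed at -0.05 on the left of this deletion and at -0.71 on its right for a further 0.59 Mb.

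On chromosome 4, chr4:93603580-93729347 lay at -4.99 ± 0.51, at least 13.1-fold lower, against -0.24 (-0.30 to 0.50), and 10 of 11 probes were called lower. This was the only autosomal deep region without a loss on either side: its flanks lay at -0.20 and 0.01.

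On chromosome 14 there were 3 deep segments. A neighbouring pair, chr14:52830056-52944102 at -3.36 ± 0.36 and chr14:52950514-53122382 at -4.47 ± 0.27, formed the longest deep region, at least 5.99-fold and at least 8.07-fold lower. The other C57BI6 families were above the reference DNA at these probes, at 0.62 (0.53 to 0.89) and 0.60 (0.53 to 0.89), and limma called all 16 and all 22 probes lower. The other strains lay between 0.00 and 0.23 in the first segment and between 0.43 and 0.84 in the second. To the left, 0.52 Mb lay at -0.62 in EL4, and to the right the level was -0.01. The T cell receptor alpha and delta loci (Tcra, Tcrd) are on chromosome 14. Their mm8 positions were not used here, so whether the deep region lies in them was not determined, and the label of EL4 as a T cell line was not checked in this way.

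The other segment on chromosome 14, chr14:114617754-114640676, had a measured mean of -6.36 ± 0.21 with all 6 probes not well above background, which is at least 18.7-fold lower. The families lay at -0.42 there (-0.82 to -0.28). It sat within a shallower loss, itself between segments at -0.32 and -0.41. On the left, 0.16 Mb lay at -0.98. The 0.11 Mb on the right had a mean of -1.52 ± 0.44 but a median of -0.996. Limma called 2 of its 15 probes lower, and the called run of the deep segment reached into it, to chr14:114644834. Its mean is thus not a level of its own. By that mean the right segment differed by -1.03 from the family median, but the median difference of its probes from the families was -0.54.

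On chromosome 18, 2 deep segments lay inside the distal block of loss. The first, chr18:80761850-80811566, was at -5.37 ± 0.45, at least 12.5-fold lower, against -0.04 (-0.12 to 0.24). The second, chr18:81053821-81086025, was at -6.02 ± 0.34, at least 22.8-fold lower, against -0.56 (-0.64 to -0.21). Between them 0.231 Mb lay at -0.81 in EL4. The rule on shared families put the second under the strain label because 4 families were at or below -0.5, although limma called all 6 of its probes lower than the families.

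The last 2 deep regions each rested on 3 probes at or below -2 among 5. They were chr3:149755653-149867734 at -3.58 ± 1.10 and chr5:84857238-84979319 at -3.95 ± 1.18, against -0.20 and 0.03 in the families. On chromosome 5, the 3 low probes, chr5:84857238-84917003, had a mean of -5.87 in EL4 and 0.07 ± 0.30 in the families (SD, n = 7), at least 18.5-fold lower than the family mean. In all, 5 of the 8 deep regions had segments at or below -0.6 on both sides, 2 on 1 side and 1 on neither.

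**Figure D3:**
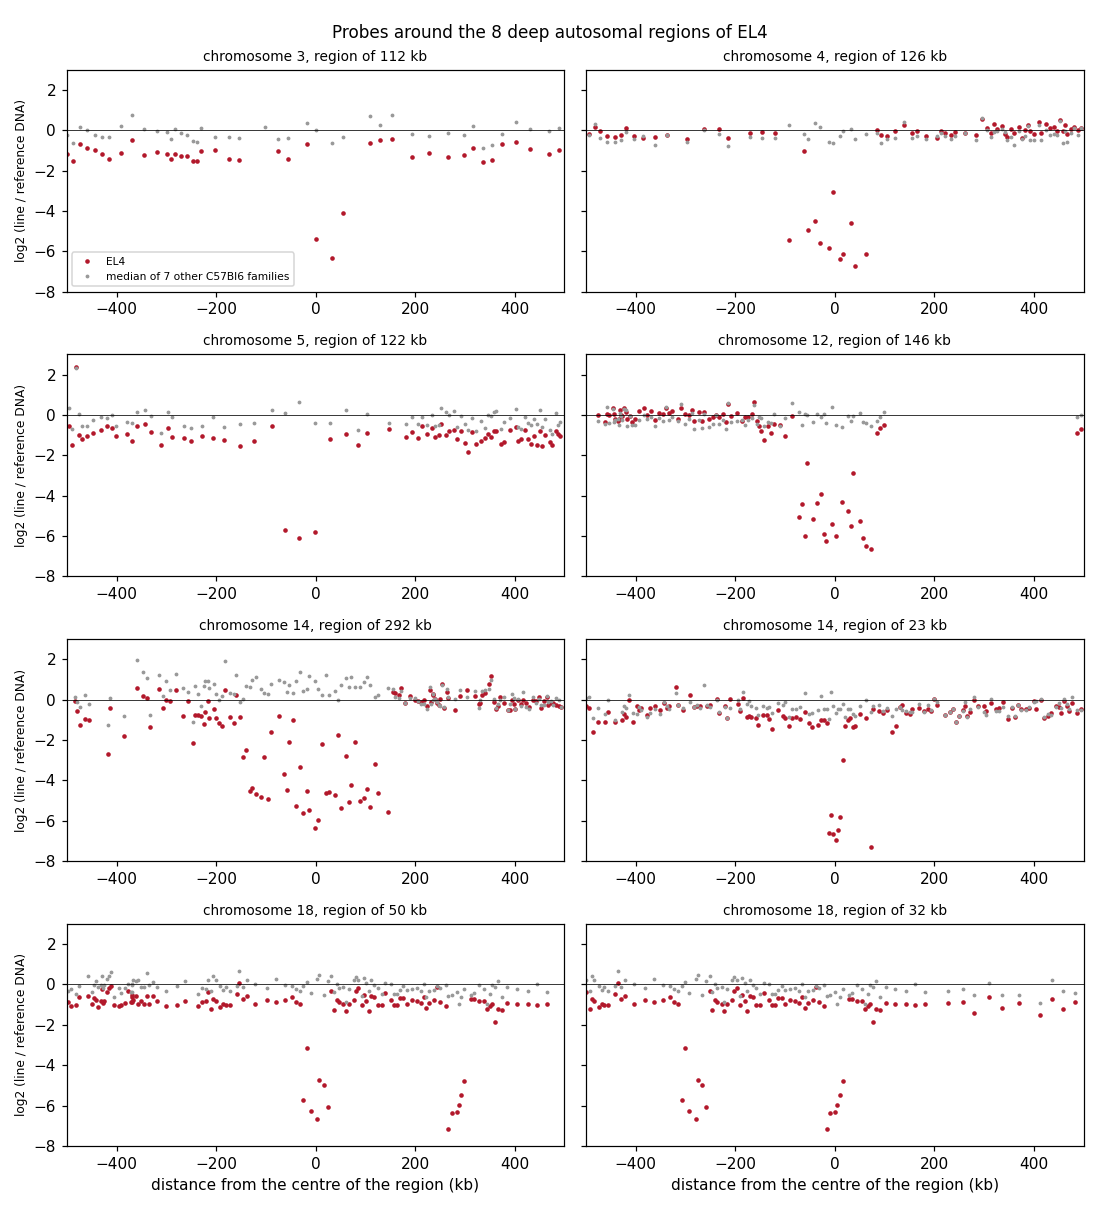
Log2 ratio of single probes within 0.5 Mb of the centre of each of the 8 deep autosomal regions, EL4 in red and the median of the 7 other C57BI6 families in grey. Most EL4 probes inside each region lie below -2, while the family median stays well above them. Over the regions that median ranges from -0.56 in the second chromosome 18 region to 0.62 in the longer chromosome 14 region.

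**Figure D4:**
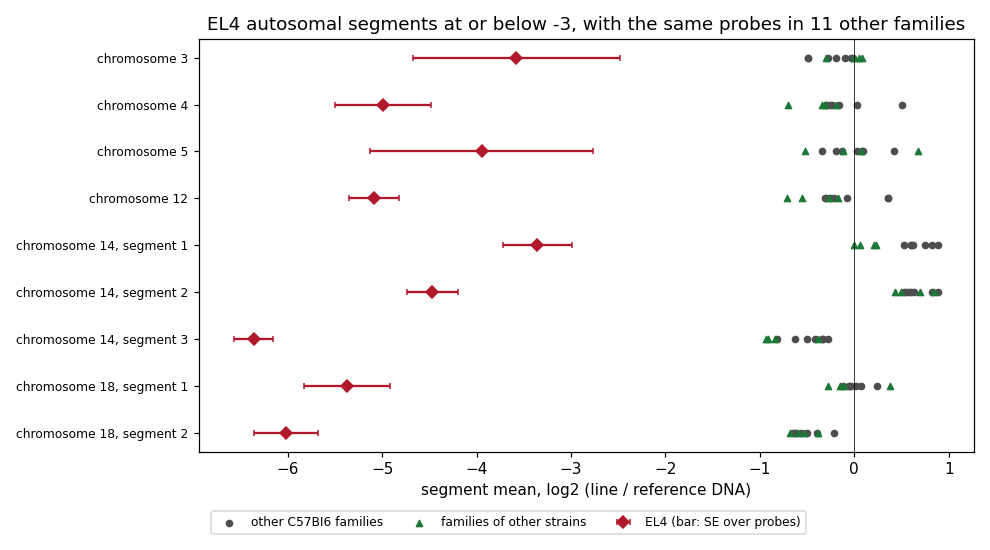
Segment mean of the 9 autosomal segments at or below -3 in EL4 (diamonds, bar: SE over probes) and the mean of the same probes in the 7 other C57BI6 families (circles) and the 4 families of other strains (triangles). No other family lies below -1 in any of them.

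The 15 shallower deletions of the 24 lay between -2.44 and -1.03. They include chr14:114644782-114752271, the segment to the right of the deep one, which is counted by its mean and not by its median. On chromosome 16, chr16:62130031-62215416 (-2.08 ± 0.12, against -0.09) and chr16:80649891-80797384 (-1.95 ± 0.10, against -0.11) stood directly at the left and the right end of the segment at -0.45. All 5 and all 13 of their probes were called lower. On chromosome 2, chr2:96140457-96431993 (-1.46 ± 0.07) and chr2:96958289-97321542 (-1.32 ± 0.10) lay near each other, against -0.08 and 0.10 in the families, and 20 of 23 and 29 of 31 tested probes were called. Of the 24, 11 had a segment at or below -0.3 next to them.

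A few sites were low in EL4 where most or all of the other C57BI6 families lay above the reference DNA. The segment chr2:85931562-85949151 was at -2.44 ± 0.76 in EL4 and at 0.52 in the families (0.38 to 0.67), while the 4 families of other strains lay between -2.04 and -1.76. It is counted among the 24 deletions above, and whether it was inherited or acquired was not tested. Its 3 called probes, chr2:85937118-85946659, had -3.65 in EL4 and 1.17 ± 0.13 in the families (SD, n = 7). The runs chr6:8043243-8048129 (-4.85 in EL4, 0.98 ± 0.28 in the families) and chr3:94797409-94802117 (-4.57 in EL4, 0.87 ± 0.17 in the families) held 2 probes each and were too short to form segments. At chr4:112788596-113200796, EL4 lay at -0.78 ± 0.46 and LL2 at -0.72, whereas the median of the 7 families was 2.02 and the highest was 2.14, and the other strains lay between -1.31 and -0.61. The signal was not well above background at 8 of the 15 probes in EL4 and at 7 in the reference DNA.

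The focal gains at or above 1 were of another kind. All 7 C57BI6 families shared each of the 11, and 4 of these were present in all 11 other families, those labelled Balb/C and DBA/2 included. None lay 1 above the family median. The highest were chr4:111730284-112091131 at 3.59 ± 0.31, against 4.17 (3.17 to 4.67), and chr4:121473470-121858499 at 3.14 ± 0.26, against 3.08 (2.88 to 3.33). In the reference DNA, 20 of the 26 probes of the first and 6 of the 13 of the second were not well above background. The sizes of these 2 gains are thus uncertain. The other strains lay between -0.74 and -0.55 and between -1.54 and -1.13 at these places. No amplification of this size was found in EL4 beyond those of the families.

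On the X chromosome, EL4 changed level once over a long distance. Up to position 108756660 the median was -0.89, and from 108762222 on it was -0.34. The distal part lay 0.54 above the proximal part in EL4, against -0.93 (B16) to 0.26 (Renca) in the 11 other families. By sign EL4 was the highest of the 12, but the difference in B16 was larger in size. The parts were split at the change point of EL4 itself, which favours EL4 in this ranking. ID8 alone had both parts near -0.34. There were 9 deep X segments, between -5.75 and -3.18, and 7 of them lay in the distal part. The longest, chrX:164357294-164442117, was at -5.75 ± 0.27, with 13 of 14 probes not well above background, against -1.03 in the other C57BI6 families (-1.79 to -0.12). It joined chrX:164452280-164500455 at -4.65 ± 0.37, against -0.82. Another, chrX:133334700-133405255, was at -5.49 ± 0.39, at least 14.5-fold lower than the reference DNA, against -0.97. By measured means all 9 lay at least 1 below the family median, but most of their probes were not well above background, so the size of these differences is not given.

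**Figure D5:**
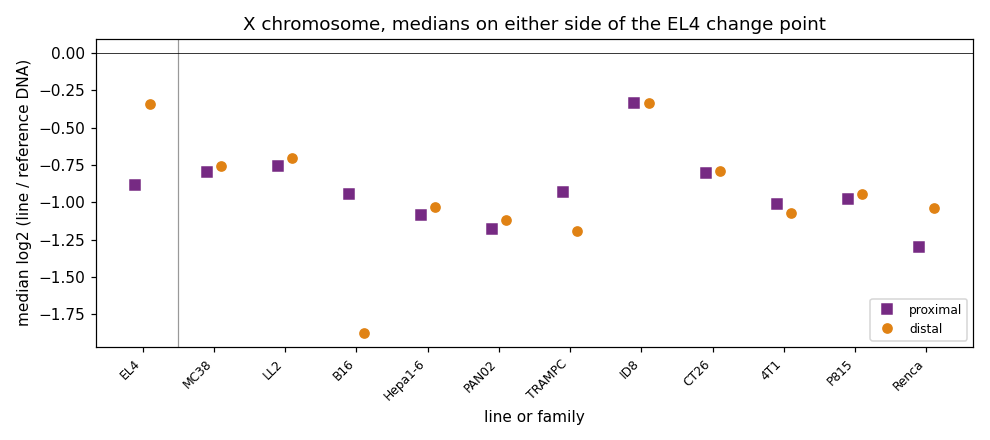
Median log2 ratio of the proximal (squares) and distal (circles) part of X, on either side of the EL4 change point, in EL4 and then in the 7 other C57BI6 families and the 4 families of other strains. In EL4 the distal part lies 0.54 above the proximal part.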

How the data were processed

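Per the file headers, Agilent Feature Extraction 10.7.3.1 produced the processed intensity of each spot by subtracting background, removing spatial trends and applying a linear dye scaling. The log10 ratio deposited for a spot is the red over the green processed signal, and the table of values that the authors deposited holds it in log2. Outlier and background flags (0 or 1) are also deposited. The 2 scan batches are those in the file headers, and EL4 lies in the one with 10 arrays. Of 235402 probes, 233212 had a placed mm8 position.

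Main values were log2 of processed red over green, without control or outlier-flagged spots, repeat spots averaged, centred on the autosomal median, with no loess. Segments came from a penalised squared-error search (penalty 6 times squared noise times log of the probe number, at least 5 probes, values limited to 3 noise SDs around a running median of 5). Omitting the pruning step gave the same change points on 21 of 21 chromosomes. On simulated EL4 profiles, planted losses of -0.9 over 20 probes were found in 19 of 19 cases and over 10 probes in 1 of 19, and gains of 0.5 over 20 probes in 0 of 19. Bins held at least 10 probes. EL4 was compared with 7 family means by limma 3.58.1 (R 4.3.3). In simulated bins, limma called 39 of 50 planted differences of -1 and 10 of 50 of -0.5. In simulated probes it called 30 of 50 of -2 and 1 of 50 of -1.

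A fold given as at least N takes, for each probe not well above background, the higher of its own red signal and the lowest red signal among probes well above background on the array. Arrays of a family were averaged first. Named items were autosomal segments of at least 5 Mb past 0.3 (at most the 20 largest by size times length), focal segments past 1 (at most 20 each way), and the 10 most different bins and probe runs each way. Members, lists and rules were chosen with earlier results of these data known. Gene positions and probe sequences on mm8 were not used here, so no gene is placed in a segment. The normexp alternative used median spot signals.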

Additional observations from a re-analysis of the deposited data

How the results depend on the processing

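Background correction mattered most. With normexp (offset 50), losses shrank more than gains: the long chromosome 3 segment was at -0.31 in place of -0.91, the chromosome 12 deletion at -0.61 in place of -5.09, and the first chromosome 15 gain at 0.57 in place of 0.51. The lost share was then 3.90% and the gained 4.24%, with 222 segments, 81 large steps, 3 focal deletions, 0 of them in EL4 alone and 0 at least 1 below the family median. Limma then called 0 bins lower and 0 higher (106 at an unadjusted p under 0.05) and 3 probes lower and 62 higher.

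The lost and gained shares were 11.4% and 4.28% with mode centring, 9.83% and 3.74% with the penalty doubled, 20.2% and 13.0% at a threshold of 0.2, 6.82% and 2.36% at 0.5, and 12.4% and 2.17% after subtraction of the family median. With probes well above background alone the gained share was 4.26%, and 15 deletions lay at least 1 below the family median, in place of 24. That setting drops probes not well above background, and a segment needs at least 5 probes. All 6 probes of chr14:114617754-114640676 and 15 of the 19 of chr12:41898910-42044772 were dropped, so these deletions could not form segments of their own. Whether this accounts for the whole drop was not tested. The doubled penalty gave 205 segments and 121 large steps. A focal level of -0.5 gave 86 deletions, 48 of them in EL4 alone, and a shared level of -0.3 left 6 in EL4 alone.

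Limma's lower and higher probes numbered 4097 lower with mode centring, 1434 and 72 with Hepa1-6 and PAN02 as 1 family, 491 and 7 within the scan batch, and 1104 and 45 with the batch as a block. The cause was not tested. Other bin counts were within 1.5 times the main ones, and no named level or bin changed sign. No paired analysis was possible because each line has 1 array and the labels give no replicate numbers. Changes below the sizes found in simulation, and deletions under 5 probes, can be missed.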
